A study of Homo sapiens with 6 samples.

Results

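The 9 genes described here, CDKN1A, MDM2, ZMAT3, SESN1, TP53I3, FAS, GDF15, RRM2B and FDXR, are direct transcriptional targets of the tumour suppressor p53. They were taken by symbol from a table of 58174 genes, and all 9 were found. RNA sequencing was performed in AGS, an established human gastric adenocarcinoma cell line. Both groups were labelled AGS: by their titles, 3 libraries were from cells given a negative control siRNA (si-NC) and 3 from cells given an siRNA against FTO (si-FTO), the demethylase that removes the methyl group of N6-methyladenosine from RNA. The genotype labels read wild type in the si-NC group, with FTO-/- in the other, although the titles name siRNAs. The study's methods describe both siRNA transfection and stable lentiviral lines without saying which gave these libraries, and the groups are named here by their titles. The table gave 1 mean of TPM (a level scaled to transcript length and to the library total) for each group, so the error between libraries was unknown, no p value could be computed, and every difference below is without a replicate check.

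p53 is a transcription factor that is held at a low level by its target MDM2, a ubiquitin ligase, and accumulates after DNA damage and other stress. It binds a response element made of a pair of adjoining decamers and switches on genes that stop the cell cycle, repair DNA, change metabolism or lead to cell death, while many cell cycle genes are repressed indirectly through CDKN1A. Gastric cancers often carry mutations of the p53 gene, and AGS is commonly used as a line with wild-type p53.

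FTO was read first as a check of the labels. Its mean was 33.1 TPM in si-NC against 7.27 TPM in si-FTO, which was 21.9% of the control level; levels are given in this order, si-NC against si-FTO, throughout. The FTO transcript was therefore lower in the libraries labelled si-FTO, and it was not at 0.

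Markers of gastric and intestinal epithelium were read next. Of these 14 markers, 10 were below 1 TPM in si-NC and 12 were in si-FTO, and TFF1, GKN1, PGC and VIL1 were listed at 0 in both groups. Of the 14, 6 were compared (at least 0.5 TPM in 1 group), of which 1 was higher and 4 were lower in si-FTO past a size of 1 in the log2 ratio of mean TPM + 1. A gene below 0.5 TPM in one group passed that minimum only through the other and could differ in 1 direction only, which held for 3 of these 4 lower genes and for the higher one. Among all 20493 genes compared, 11.4% were higher and 17% were lower past that size. These shares are the background for the counts of every marker list. The transcription factors GATA4 (36.96 TPM), CDX2 (18.1 TPM) and SOX2 (13.2 TPM) were present in si-NC but listed at 0 in si-FTO, GATA6 was 20.3 TPM against 2.54 TPM, and HNF4A was 0.0255 TPM against 1.09 TPM. The summed level of this list was 89.3 TPM in si-NC against 4.90 TPM in si-FTO, with GATA4 the most abundant gene in si-NC and GATA6 in si-FTO.

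Most of the compared markers of epithelium in general differed in the other direction. Of 14 genes, 11 were compared, of which 9 were higher (5 of them passing the minimum only through si-FTO) and 1 lower past that size, and the list's summed level was 71.2 TPM against 5428 TPM. The keratin KRT8 was 10.8 TPM against 3139 TPM, KRT18, the gene of the list with the highest level in si-NC, was 52.1 TPM against 1851 TPM, KRT7 was listed at 0 in si-NC against 253 TPM in si-FTO, and the transcription factor ELF3 was 0.115 TPM against 93.3 TPM. KRT8 and KRT18 have many processed pseudogenes, so the split of their reads was uncertain. The membrane protease ST14 was 0.0376 TPM against 39.3 TPM and MUC1 was 1.71 TPM against 31.04 TPM. The tight junction genes were also higher in si-FTO, with CLDN7 at 1.17 TPM against 14.8 TPM, CLDN3 at 0.165 TPM against 2.95 TPM and CLDN4 at 0.226 TPM against 2.70 TPM. The adhesion genes went against this direction, at low levels in both groups. CDH1, at 3.67 TPM against 0.685 TPM, was the gene lower past that size (log2 ratio -1.47). EPCAM, at 1.22 TPM against 0.113 TPM, was also lower but just short of it (-0.99). KRT19, ESRP1 and GRHL2 were below 0.5 TPM in both groups and were not compared. Of the 14 epithelial markers, 8 were below 1 TPM in si-NC and 5 in si-FTO, while most gastric and intestinal markers were below 1 TPM in both groups.

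Markers of other cell types also differed, and their counts stand beside 11.4% higher and 17% lower among all genes compared. Of 10 neuronal markers, 7 were compared, of which 6 were lower and 0 higher past that size in si-FTO; all 6 passed the minimum only through si-NC and could only be lower. The list's summed level was 443 TPM in si-NC against 6.03 TPM in si-FTO. UCHL1 was 303 TPM against 0.0204 TPM, NEFL (62.7 TPM) and NEFM (49.9 TPM) were listed at 0 in si-FTO, and TUBB3, the most abundant neuronal marker in si-FTO, was 10.003 TPM against 5.73 TPM. Of 10 mesenchymal markers, 8 were compared, of which 2 were higher (1 passing only through si-FTO) and 3 lower (2 passing only through si-NC), so this list had no common direction, and its summed level was 485 TPM against 806 TPM. The higher genes were PDGFRB, at 0.370 TPM against 5.34 TPM, and COL1A1, at 10.3 TPM against 36.4 TPM. The lower genes were FN1, at 27.7 TPM against 8.74 TPM, COL3A1, at 2.18 TPM against 0.361 TPM, and PDGFRA, at 1.03 TPM and listed at 0. The call of PDGFRA was lost with median-ratio scaling and quantile normalization (-0.97 and -0.90), and that of COL3A1 with quantile normalization (-0.97). VIM, the intermediate filament of mesenchymal cells, was the most abundant of the list in both groups, at 440 TPM against 752 TPM. Of 8 leukocyte markers, 3 were compared, of which 1 was higher (CD68, 1.49 TPM against 6.42 TPM) and 1 lower, a call lost with both of these scalings, PTPRC was listed at 0 in both groups, and the sums were 5.28 TPM and 7.77 TPM. In a bulk sample, fewer cells of a type and less RNA per cell cannot be told apart. These markers differed between the same 2 group means as all the p53 targets, and their part in the results was not tested. Differences of this size, with abundant genes of one group at or near 0 in the other, leave it uncertain that both groups were the same line in the same state. A difference in line or culture cannot be told apart from the siRNA in any ratio of si-FTO over si-NC given here.

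The sequences that p53 is known to read were sought near the members, because a response element is what makes a gene a direct target. The p53 response element consensus was searched as a pair of adjoining half-sites of 10 bases with no spacer, within 5 kb of the annotated gene start on GRCh37. The half-site reads the same on both strands, so each search covered both. A match kept the central C and G of each half-site and had at most 2 of 20 bases off the consensus. Of the 9 members, 6 had a match: CDKN1A, MDM2, ZMAT3, FAS, GDF15 and RRM2B. The share among 20162 protein-coding genes was 7.56%, and among 82 other known p53 targets it was 37.8% (31 genes). A match is a description of letters and was not a measure of binding, and the lack of a match does not show that an element is absent. The matches of 5 of these 6 members are printed here because they are the sequences that were counted. Each is given 5′ to 3′ on the gene's strand, with the 20 matched bases in capitals and the flanking genome in lower case.
CDKN1A: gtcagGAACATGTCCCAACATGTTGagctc
MDM2: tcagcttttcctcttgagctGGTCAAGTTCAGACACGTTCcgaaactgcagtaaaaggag
ZMAT3: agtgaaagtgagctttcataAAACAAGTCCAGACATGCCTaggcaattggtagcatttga
FAS: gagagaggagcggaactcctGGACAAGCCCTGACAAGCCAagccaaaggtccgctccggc
GDF15: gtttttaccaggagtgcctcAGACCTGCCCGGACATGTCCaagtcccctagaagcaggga

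The matched bases of CDKN1A lay at chr6:36644226-36644245 on the plus strand, 2 bases off the consensus. They overlapped the outermost annotated start of the gene, and their centre was 2256 bases upstream of the start of the canonical transcript. The match of MDM2, at chr12:69202703-69202722 on the plus strand, was 2 bases off and lay in intron 1, 756 bases past the start. The match of ZMAT3, at chr3:178787976-178787995 on the minus strand, was 0 bases off and lay in intron 1, 1612 bases past the canonical start. A match with 0 bases off was held by 30 of the 20162 protein-coding genes (0.149%). The match of FAS, at chr10:90751066-90751085 on the plus strand, was 2 bases off and lay in intron 1, 662 bases past the start.

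GDF15 had a match 1 base off at chr19:18484757-18484776 on the plus strand. It lay 774 bases upstream of the outermost annotated start of the gene and 12202 bases upstream of the canonical one. Another GDF15 match, 2 bases off at chr19:18496118-18496137, lay nearer the canonical start, 840 bases upstream of it. That match was 10586 bases past the outermost start, outside the window searched, and was therefore not counted or printed above. The match of RRM2B was 1 base off and lay in intron 1, 2112 bases past the start. SESN1, TP53I3 and FDXR had matches only with 3 bases off, a level of similarity that 41.2% of protein-coding genes reached, and these are not shown. With 3 bases off allowed, all 9 members had a match.

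**Figure D1:**
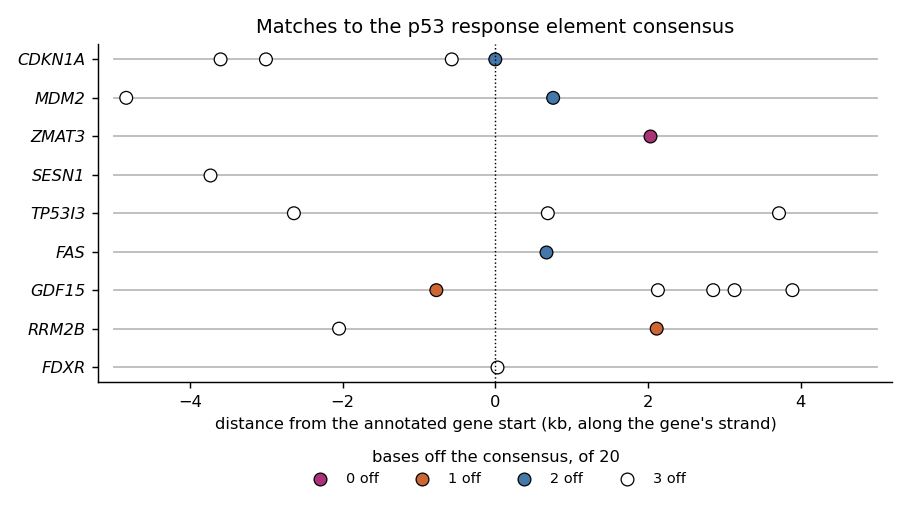
Matches to the p53 response element consensus within 5 kb of the annotated start of the 9 members, with the distance from the start in kb along the gene's strand on the horizontal axis and the colour giving the bases off the consensus. Filled points (at most 2 bases off) are present for 6 of 9 members, and SESN1, TP53I3 and FDXR have open points (3 bases off) only.

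The levels of the members were then compared. The scale was the log2 ratio of mean TPM + 1, si-FTO over si-NC, which understates the change of genes at low levels, and a gene was called past the fold at a size of at least 1. All 9 members passed the minimum of 0.5 TPM in both groups. Of the 9 members, 4 were past the fold and higher in si-FTO (GDF15, TP53I3, FAS and CDKN1A), and 0 were past it and lower. Among all 20493 genes compared, 11.4% were past the fold and higher (2340 genes) and 17% were past it and lower (3492 genes). The remaining 5 members (MDM2, ZMAT3, SESN1, RRM2B and FDXR) were within the fold, each with a lower TPM in si-FTO, of which FDXR turned to the other side of 0 with median-ratio scaling. The median log2 ratio of the 9 members was -0.14, beside -0.20 for all genes compared, so the members as a list sat near the middle of all genes while 4 of them stood in its upper part.

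The ratios of all genes were centred below 0, with 8214 genes higher and 12279 lower in si-FTO before any fold was asked for. Median-ratio scaling of both groups took up a shift of -0.21 on the log2 scale and changed the counts of genes past the fold to 2786 higher and 2885 lower. Relative to that shift the log2 ratios were 5.34 for GDF15, 1.98 for TP53I3, 1.53 for FAS and 1.27 for CDKN1A. The same scaling gave -0.76 for SESN1, -0.26 for RRM2B, -0.10 for MDM2 and -0.02 for ZMAT3. FDXR turned to 0.06, and the median of the 9 members, which is the value of FDXR, turned with it. The 4 higher members kept their side of the fold under this scaling.

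**Figure D2:**
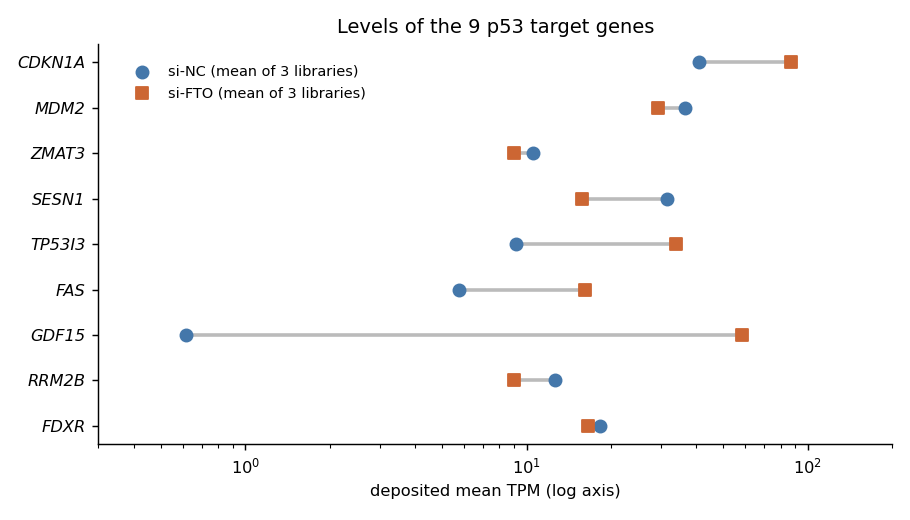
Deposited mean TPM (log axis) of the 9 members in si-NC (circles) and si-FTO (squares), each point being 1 mean of 3 libraries with no error available. GDF15 has the widest gap of the 9, from 0.616 TPM to 58.1 TPM, and the 5 members whose square lies to the left of the circle are all within the fold, FDXR turning to the right with median-ratio scaling.

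The order of the members by level differed between the groups. In si-NC the order from the top was CDKN1A, MDM2, SESN1, FDXR, RRM2B, ZMAT3, TP53I3, FAS and GDF15. In si-FTO it was CDKN1A, GDF15, TP53I3, MDM2, FDXR, FAS, SESN1, ZMAT3 and RRM2B. CDKN1A was the most abundant member in both, while GDF15 went from the ninth place to the second and SESN1 from the third to the seventh. With no spread, it could not be said which neighbours in these orders differed; FDXR, FAS and SESN1 lay at 16.5, 16.1 and 15.8 TPM in si-FTO, and ZMAT3 and RRM2B at 9.01 and 9.003 TPM. The summed level of the 9 members was 166 TPM in si-NC against 275 TPM in si-FTO.

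CDKN1A (ENSG00000124762, chromosome 6, 36644237 to 36655114, plus strand) encodes p21, the inhibitor of cyclin-dependent kinases through which p53 stops the cell cycle. Its mean was 41.1 TPM in si-NC against 87.1 TPM in si-FTO, 2.12 times the control level, with a log2 ratio of 1.06. Of the 4 members past the fold it lay closest to the threshold, and 10.8% of all genes compared had a higher log2 ratio. The long noncoding RNA DINOL runs antisense over 951 bases of the gene and was not analysed here.

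MDM2 (ENSG00000135679, chromosome 12, 69201957 to 69239324, plus strand) encodes the ubiquitin ligase that marks p53 for degradation and is itself induced by p53, which closes the feedback loop. Its mean was 36.5 TPM in si-NC against 29.3 TPM in si-FTO, giving a log2 ratio of -0.31. In this table MDM2 and CDKN1A, a pair of textbook p53 targets at similar levels in si-NC, thus lay on different sides of 0. CPM, a protein-coding gene antisense to MDM2 over 3348 bases, was at 3.57 TPM and 1.70 TPM. The noncoding genes and the processed pseudogene that overlap MDM2 were below 0.5 TPM in both groups.

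ZMAT3 (ENSG00000172667, chromosome 3, 178677909 to 178790003, minus strand) encodes a zinc finger protein that binds RNA and regulates its stability and splicing. It had the perfect response element match shown above and a mean of 10.6 TPM in si-NC against 9.01 TPM in si-FTO, giving a log2 ratio of -0.21. That ratio was next to the median of all genes, with 50.4% of genes compared having a higher one. The member with the closest sequence match was therefore not among those past the fold.

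Genes of cell death and secretion held the other members past the fold. FAS (ENSG00000026103, chromosome 10, 90750414 to 90775542, plus strand), the death receptor of the extrinsic apoptosis pathway, was 5.75 TPM in si-NC against 16.1 TPM in si-FTO, 2.80 times the control level, with a log2 ratio of 1.34. ACTA2 runs antisense over 683 bases of FAS and was 6.51 TPM and 10.4 TPM. TP53I3 (ENSG00000115129, chromosome 2, 24300303 to 24308731, minus strand), a quinone oxidoreductase linked to oxidative stress and apoptosis, was 9.14 TPM in si-NC against 33.9 TPM in si-FTO, 3.71 times the control level, with a log2 ratio of 1.78. Although it lacked a match with at most 2 bases off, it stood higher than 5 of the 6 members that had one. The search covered only adjoining half-sites without a spacer, so an element of another form would not be found. The whole length of TP53I3, 8429 bases, lies antisense within FAM228B, which was 2.23 TPM in si-NC against 0.944 TPM in si-FTO and so differed in the other direction.

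GDF15 (ENSG00000130513, chromosome 19, 18485541 to 18499986, plus strand) encodes a secreted cytokine of the TGF-beta superfamily that is released under stress, and p53 is only one of its known activators. Its mean was 0.616 TPM in si-NC against 58.1 TPM in si-FTO, 94.4 times the control level, with a log2 ratio of 5.19. Of all genes compared, 0.542% had a higher ratio. The control level was close to the minimum of 0.5 TPM, so the size of this ratio rests on a small denominator, and it was 6.56 with 0.0001 kept and no pseudocount. The miRNA hairpin MIR3189, which lies within GDF15 on the same strand, was listed at 0 in si-NC against 3.76 TPM in si-FTO; its 73 bases are shared with the host, so their reads cannot be told apart.

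SESN1 (ENSG00000080546, chromosome 6, 109305512 to 109416049, minus strand) encodes sestrin 1, a leucine-binding stress protein that restrains mTORC1. Its mean was 31.6 TPM in si-NC against 15.8 TPM in si-FTO, 0.499 times the control level, with a log2 ratio of -0.96, the lowest of the 9. It fell just short of the fold, whereas CDKN1A was just past it, and it reached -1.002 when no pseudocount was added. Of all genes compared, 81.9% had a higher ratio. The antisense noncoding gene that overlaps SESN1 was below 0.5 TPM in both groups, and RNU6-653P within it was listed at 0.

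The members that serve DNA synthesis and mitochondria were within the fold. RRM2B (ENSG00000048392), the p53-induced subunit of ribonucleotide reductase that supplies nucleotides for repair, was 12.7 TPM in si-NC against 9.003 TPM in si-FTO, giving a log2 ratio of -0.45. Its paralog RRM2, which supplies nucleotides in S phase, was far more abundant, at 135 TPM and 165 TPM, with a log2 ratio of 0.28. FDXR (ENSG00000161513, chromosome 17, 72858619 to 72869156, minus strand), the ferredoxin reductase of mitochondria, was 18.3 TPM in si-NC against 16.5 TPM in si-FTO. Its log2 ratio of -0.14 was the one that turned its sign with median-ratio scaling.

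**Figure D3:**
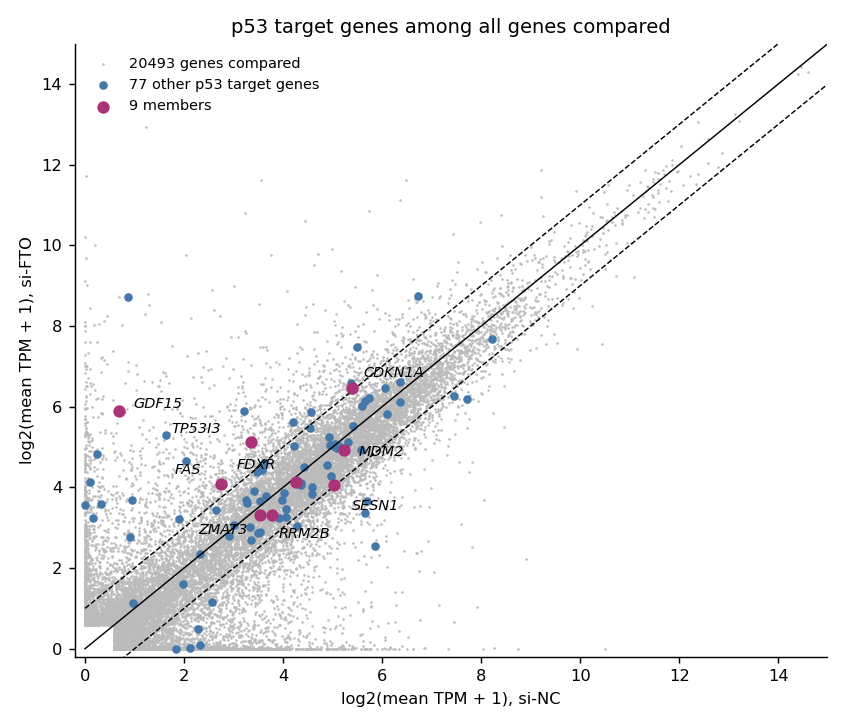
Log2 of mean TPM + 1 in si-NC (horizontal) and si-FTO (vertical) for the 20493 genes compared (grey), 77 other p53 target genes (blue) and the 9 members (purple, named), 1 mean per group. The solid line marks equal levels and the dashed lines a log2 ratio of 1 in size; GDF15, TP53I3, FAS and CDKN1A lie above the upper dashed line and SESN1 lies just inside the lower one.

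The wider p53 program was described from 82 other targets in 6 lists by role, of which 77 were compared. Of these, 17 were past the fold and higher in si-FTO (22.1%) and 11 were past it and lower (14.3%), beside 11.4% and 17% of all genes. The other 49 were within the fold. With median-ratio scaling the counts were 21 higher and 10 lower, since PHLDA3 (1.04), RPS27L (1.14), KITLG (1.09) and TNFAIP8 (1.19) came past the fold and BAX left it. The median log2 ratio of the 77 was 0.07, or 0.26 with median-ratio scaling, beside -0.20 for all genes, or -0.03 with the same scaling. Several of the genes named next, among them TNFRSF10A, KCNN4 and PRDM1, passed the minimum of 0.5 TPM only through si-FTO and so could be past the fold only as higher. In the same way TP53INP1, SPATA18, EDA2R and GLS2 passed it only through si-NC and could be past the fold only as lower.

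Among 9 further genes of cell cycle arrest, 2 were higher and 1 was lower past the fold, with a median of -0.10 that turned to 0.08 with median-ratio scaling. SFN, the 14-3-3 sigma protein that holds cells before mitosis and is also typical of epithelial cells, was 0.812 TPM in si-NC against 419 TPM in si-FTO, giving a log2 ratio of 7.86. PLK2, a polo-like kinase, was 8.20 TPM against 57.9 TPM, a log2 ratio of 2.68. CCNG1, which encodes cyclin G1 and was the gene of the list with the highest level in si-NC, was 207 TPM against 71.7 TPM, a log2 ratio of -1.52. The other 6 arrest genes were within the fold.

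Among 8 genes of feedback on p53, 0 were higher and 1 was lower past the fold, with a median of -0.26, or -0.05 with median-ratio scaling; PHLDA3 was the feedback gene that became higher past the fold with that scaling. TP53INP1, a cofactor of p53 in autophagy and apoptosis, was 3.35 TPM in si-NC against 0.00431 TPM in si-FTO, giving a log2 ratio of -2.11. TRIAP1, the most abundant of the list, was 80.6 TPM and 68.1 TPM. MDM2 was within the fold like 7 of these 8 genes and like most genes compared.

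Of 17 genes of cell death, 16 were compared, with 3 higher and 5 lower past the fold and a median of -0.44, or -0.23 with median-ratio scaling. TNFRSF10A, a receptor of the death ligand TRAIL, was 0.0739 TPM in si-NC against 16.5 TPM in si-FTO, giving a log2 ratio of 4.02; it has close paralogs in the same cluster, between which reads may be split. AIFM2, known as the ferroptosis suppressor FSP1, was 2.11 TPM against 38.6 TPM, a log2 ratio of 3.67. DRAM1, a lysosomal protein of autophagy, was 3.12 TPM against 24.1 TPM, a log2 ratio of 2.61.

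The 5 lower genes came from several arms of the death response. PMAIP1, which encodes the BH3-only protein NOXA, was 49.5 TPM in si-NC against 9.26 TPM in si-FTO, giving a log2 ratio of -2.30. BAX, the pore-forming effector of mitochondrial apoptosis and the most abundant gene of the list in both groups, was 175 TPM against 75.8 TPM, a log2 ratio of -1.20 that became -0.99 with median-ratio scaling and so left the fold. SPATA18, which acts in mitochondrial quality control, was 2.55 TPM in si-NC but listed at 0 in si-FTO, and the receptor EDA2R was 3.86 TPM against 0.405 TPM, a log2 ratio of -1.79. TNFRSF10C, a decoy receptor of TRAIL, was 4.95 TPM against 1.24 TPM, a log2 ratio of -1.41.

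Among 7 genes of DNA repair, 1 was higher and 0 were lower past the fold, with a median of 0.07, or 0.28 with median-ratio scaling. DDB2, the damage sensor of nucleotide excision repair and the repair gene with the highest level in si-FTO, was 22.6 TPM in si-NC against 56.9 TPM in si-FTO, giving a log2 ratio of 1.30. ASCC3, a helicase and the most abundant in si-NC, was 32.0 TPM and 32.4 TPM.

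Among 16 genes of metabolism and redox control, 2 were higher and 2 were lower past the fold, with a median of -0.29, or -0.10 with median-ratio scaling. DDIT4, the most abundant in si-FTO and an mTORC1 inhibitor that also responds to hypoxia and glucocorticoids, was 105 TPM in si-NC against 430.4 TPM in si-FTO, giving a log2 ratio of 2.03. SESN2, the paralog of SESN1, was 50.5 TPM against 11.6 TPM, a log2 ratio of -2.04, so both sestrins had log2 ratios below 0, SESN1 within the fold, while that of DDIT4, another inhibitor of the same kinase complex, was above 0. CMBL, a hydrolase, was 43.9 TPM against 178 TPM, a log2 ratio of 1.99. GLS2, the mitochondrial glutaminase, was 3.98 TPM against 0.0605 TPM, a log2 ratio of -2.23, and GPX1, the glutathione peroxidase that was the most abundant in si-NC, was 296 TPM and 202 TPM.

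Of 25 genes of the cell surface, secretion and signalling, 21 were compared, with 9 higher and 2 lower past the fold. The median was 0.90, or 1.09 with median-ratio scaling, the highest of the 6 lists. It includes 4 of the 9 higher genes that passed the minimum only through si-FTO and could only be higher. KCNN4, a calcium-activated potassium channel, was 0.176 TPM in si-NC against 27.3 TPM in si-FTO, giving a log2 ratio of 4.59. PRDM1, a transcriptional repressor, was 0.246 TPM against 11.003 TPM, a log2 ratio of 3.27. CYFIP2, a subunit of the WAVE complex of actin regulation, was 56.8 TPM against 4.86 TPM, a log2 ratio of -3.30, and the ubiquitin ligase RNF19B was 18.3 TPM against 7.30 TPM, a log2 ratio of -1.22. PLXNB2, a semaphorin receptor and the most abundant of the list, was 81.2 TPM and 97.4 TPM. GDF15, also secreted, had a larger log2 ratio than any of these 21 genes.

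**Figure D4:**
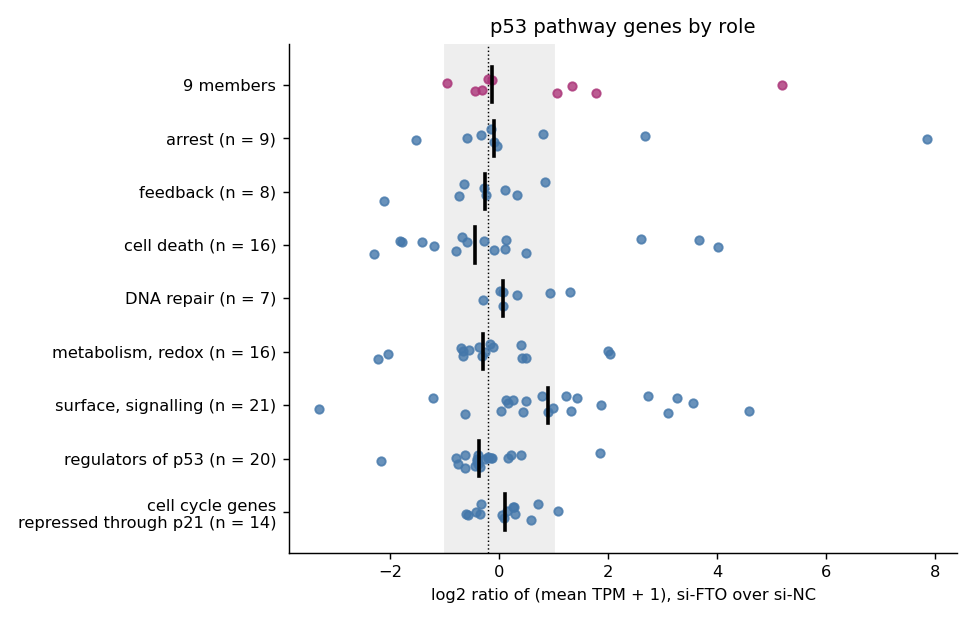
Log2 ratio of mean TPM + 1 (si-FTO over si-NC) of the 9 members, of other p53 targets by role, of p53 regulators and of cell cycle genes repressed through p21, with n the number compared, 1 point per gene and a bar at each median. The shaded band is within the fold and the dotted line is the median of all genes (-0.20). The surface and signalling list has the highest median (0.90) and the cell death list the lowest (-0.44). Both medians include genes that passed the minimum through 1 group only, so that their direction was fixed. These are 4 of the 9 higher surface genes, and 1 of the 3 higher and 2 of the 5 lower death genes.

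The genes that act on p53 itself were mostly within the fold, as were most genes compared. Of 20 regulators, 1 was higher (5%) and 1 was lower (5%) past it, beside 11.4% and 17% of all genes. Their median was -0.37, or -0.16 with median-ratio scaling. PPP1R13L, which encodes the p53 inhibitor iASPP, was 9.54 TPM in si-NC against 36.8 TPM in si-FTO, giving a log2 ratio of 1.84. HIPK2, a kinase that phosphorylates p53 in the death response, was 25.3 TPM against 4.81 TPM, a log2 ratio of -2.18. RPL11, the ribosomal protein that binds MDM2 and the most abundant of the list, was 3042 TPM and 2644 TPM.

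The paralogs of p53 read much the same response element. TP73 was 6.45 TPM in si-NC against 0.297 TPM in si-FTO, giving a log2 ratio of -2.52. TP63, the paralog of stratified epithelia, was 0.0314 TPM and 0.528 TPM, a log2 ratio of 0.57. TP73 passed the minimum of 0.5 TPM only through si-NC and TP63 only through si-FTO, so the direction of each was fixed.

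Cell cycle genes that are repressed downstream of p53 and p21, through the DREAM complex, were read as the indirect arm of the pathway. Of 14 such genes, 1 was higher (7.14%) and 0 were lower past the fold, beside 11.4% and 17% of all genes. Their median was 0.11, or 0.33 with median-ratio scaling. FOXM1, a transcription factor of mitotic genes, was 50.6 TPM in si-NC against 107.7 TPM in si-FTO, giving a log2 ratio of 1.07. CDC20, the one with the highest level in si-NC, was 287 TPM and 227 TPM, and CCNB1, the most abundant in si-FTO, was 230.2 TPM and 243 TPM. The level of CDKN1A was thus higher in si-FTO while 13 of these 14 genes were within the fold, as were most genes compared.

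Levels of genes that lie near each other on a chromosome can move together, and the members were therefore set beside their neighbours, a comparison chosen after the values were seen. For each gene, the median log2 ratio of the 50 nearest genes compared on the same chromosome was taken. This median was -0.52 around CDKN1A, where 1 of the 50 neighbours was higher and 16 were lower past the fold, so CDKN1A stood 1.58 above its surroundings. It was -0.70 around SESN1, with 1 higher and 16 lower, so SESN1 stood 0.26 below its surroundings. Both genes lie on chromosome 6, on different arms. Around GDF15 (-0.21), TP53I3 (-0.28) and FAS (-0.14) the median was near that of all genes, and so it was around MDM2 (-0.23) and RRM2B (-0.17), while it was -0.37 around FDXR and -0.04 around ZMAT3.

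Among the 82 other targets, 13 had neighbours with a median beyond 0.5 in size, and 2 of the 9 members did. These shares, 15.9% and 22.2%, lay near the 17.3% of all 19957 genes compared and placed on a chromosome. PMAIP1 (-0.90, with 23 of 50 neighbours lower past the fold), BAX (-0.70), SPATA18 (-0.70), CCNG1 (-0.53) and CYFIP2 (-0.53) were lower themselves and lay among genes with low ratios. RCHY1 (-0.74, neighbours -0.65) and FBXW7 (-0.64, neighbours -0.56) were within the fold and close to their surroundings. CMBL was higher itself and had the highest surroundings (0.95, with 24 of 50 neighbours higher past the fold). PRDM1 (-0.81) was higher itself among neighbours with low ratios, as CDKN1A was. PLXNB2, REV3L, ASCC3 and PERP also stood above low surroundings, by 1.14, 0.84, 0.80 and 0.75 on the log2 scale, and were within the fold. The part of the surroundings in the ratio of any single gene was not tested.

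**Figure D5:**
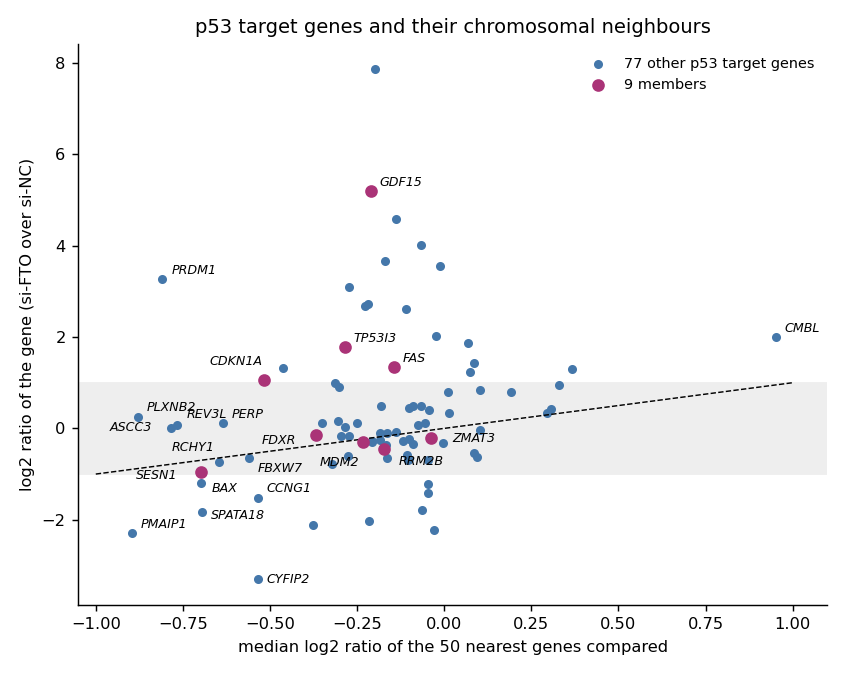
Log2 ratio of each p53 target gene (vertical, si-FTO over si-NC) against the median log2 ratio of its 50 nearest genes compared (horizontal), for the 9 members (purple) and 77 other targets (blue), with names for members and for genes whose neighbours lie beyond 0.5 in size. The dashed line marks a gene equal to its surroundings; GDF15, TP53I3, FAS and CDKN1A lie above it, SESN1 lies close to it at -0.70, and CMBL is the point at the far right (0.95).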

How the data were processed

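Total RNA of 6 libraries, 3 in each group, was sequenced from stranded libraries. Per the study's methods, the authors mapped reads to hg19 with Bowtie and quantified them with RSEM, whereas the submitters' processing notes name HISAT2; use of strand in counting is not given in the sources used here. TPM was deposited as 1 mean for each group. The deposited log2 ratio, p-value and q-value columns hold the authors' own comparison and were not used. TPM keeps no depth, so depth and precision are unknown. A TPM of 0.0001 was read as 0 ("listed at 0").

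The log2 ratio used a pseudocount of 1, a minimum mean of 0.5 TPM in at least 1 group and a fold of 1. Symbols matched 55726 of 58174 identifiers. Positions and sequences come from GRCh37 (hg19) with GENCODE 44 lifted to it. Antisense or nested genes may share reads with a member.

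The members and lists were chosen with earlier results of these data known. Named were all members, FTO, genes overlapping a member, the p53 paralogs and, of each list, up to 3 genes past the fold in each direction with at least 1 TPM, plus its most abundant gene; EPCAM, MUC1, ST14, the claudins, RRM2, TNFRSF10C, genes whose call a scaling changed, other markers listed at 0 and genes named for their neighbours were added after their values were seen. Some items that these rules cover are not reported here. Alternatives were a pseudocount of 0.1 or none, no minimum or 5 TPM, median-ratio scaling, quantile normalization, a fold of 0.5 or 2, and other windows and mismatch limits. Python 3.11.15, numpy 2.4.6, pandas 2.3.3 and matplotlib 3.10.9 were used, and the scripts were tested on simulated data.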

Additional observations from a re-analysis of the deposited data

How the results depend on the processing

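No paired analysis was possible because the table holds 1 mean per group, although the titles number the libraries 1 to 3 in both groups; leaving out single libraries was not run for the same reason. The 4 members past the fold kept their side with a pseudocount of 0.1, with none, with median-ratio scaling and with quantile normalization, and SESN1 passed it (-1.002) only without a pseudocount. With median-ratio scaling the median of the members was 0.0634. With a fold of 2, 1 member (GDF15) was past it, and the counts were 976 higher and 1241 lower for all genes and 11 higher and 5 lower for the other targets. With a fold of 0.5, 4326 genes were higher and 7160 lower, 23 other targets were higher and 22 lower, and 5 members were past it, SESN1 as a lower one. With a minimum of 5 TPM, 2254 genes and 6 other targets were lower, since fewer genes were compared. With at most 1 base off the consensus, 3 members had a match. No gene named as past the fold changed sign. Of the log2 ratios of single genes under the alternatives, named genes included, 598 stayed within the limits set and 138 moved. Canonical transcript starts, added after the data were seen, gave 6 members with a match, beside 7.63% of protein-coding genes. The GDF15 match printed lies outside that window, and GDF15 was counted there through its match 840 bases upstream of the canonical start. Within 2 kb of the gene start 4 members had a match, beside 2.91% of protein-coding genes. Except where stated, the cause of these moves was not tested. Unknown depth limits all values, those below 1 TPM most.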
